A study of Rattus norvegicus with 9 samples.

Results

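The 8 genes described here encode the neutrophil-attracting CXC chemokines Cxcl1, Cxcl2, Cxcl3 and Cxcl6, their receptors Cxcr1 and Cxcr2, and the alarmins S100a8 and S100a9. They were chosen by symbol, 1 row of the count table each, out of 30507 rows, 22777 of them with any count. RNA of the spinal cord was sequenced from wild-type female Sprague-Dawley rats, 8 weeks old when obtained, with 3 rats in each of 3 groups, all killed at 35 days post-injury (dpi). The Sham rats are called untreated in the labels, and had a laminectomy without contusion according to the study's methods. The SCI rats had a contusion at T10 and carried a plug on the skin without an electrode. The SCI + SCS rats had the same contusion, an epidural electrode at T11 to T12 and high-frequency spinal cord stimulation (HF-SCS) of 10 kHz, 0.12 mA and 30 microsecond pulses for 2 h daily, starting at 1 dpi. The SCI + SCS group therefore differed from the SCI group by electrode and stimulation together, and these cannot be told apart here. The tissue was whole cord from T9 to T11, taken after perfusion with saline.

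CXCL1, CXCL2, CXCL3 and CXCL6 carry the Glu-Leu-Arg motif before their first cysteines and draw neutrophils out of the blood by binding CXCR2, and in part CXCR1, receptors coupled to inhibitory G proteins. Their genes are induced within hours by IL-1, TNF and Toll-like receptor ligands through NF-κB. S100A8 and S100A9 are calcium-binding proteins that pair to form calprotectin, which is abundant in the neutrophil cytosol and in some monocytes. Released calprotectin binds zinc and manganese and signals through TLR4 and the receptor for advanced glycation end products. In the contused cord neutrophils are best known from the first days after injury.

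The members lie in 3 clusters. Cxcr1 (chromosome 9, 75766770 to 75771084, minus strand) and Cxcr2 (chromosome 9, 75729115 to 75739425, plus strand) were 27.3 kb apart. Cxcl2 (chromosome 14, 17181062 to 17183075), Cxcl1 (17193365 to 17195215), Cxcl3 (17270146 to 17289380) and Cxcl6 (17310426 to 17313093), all on the minus strand, spanned 132 kb. S100a8 (chromosome 2, 176167124 to 176167643, plus strand) and S100a9 (176190361 to 176193230, minus strand) were 22.7 kb apart. These whole-gene positions are those of the deposited table, whose build is mRatBN7.2 in the submitters' processing notes. No other row of the table overlapped a member. Cxcl1, Cxcl2 and Cxcl3 are close paralogs, and whether the counting shared reads between them was not tested.

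RefSeq promoters (build GRCr8) were at hand for 6 of the 8 members, the exceptions being Cxcl3 and S100a8. The last 110 bases before the start site are shown for 3 ligands because of the words they share, and for Cxcr1 because its level differed most between groups. Capitals mark the longest word shared by Cxcl1 and Cxcl6 and the longest words shared by all 3 ligands, on the strand of the gene within 250 bases before the start, and none of these words occurs in the window of Cxcr1. The windows are Cxcl1 at chr14:17479322-17479431, Cxcl2 at chr14:17467256-17467365, Cxcl6 at chr14:17596418-17596527 and Cxcr1 at chr9:83220226-83220335, all on the minus strand.
Cxcl1: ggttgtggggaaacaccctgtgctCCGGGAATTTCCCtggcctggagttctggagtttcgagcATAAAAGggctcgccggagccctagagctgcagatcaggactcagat
Cxcl2: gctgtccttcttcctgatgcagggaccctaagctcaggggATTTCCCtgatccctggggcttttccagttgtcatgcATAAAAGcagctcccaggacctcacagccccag
Cxcl6: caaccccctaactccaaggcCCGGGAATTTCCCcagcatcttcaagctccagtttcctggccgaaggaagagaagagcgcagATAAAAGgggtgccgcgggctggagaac
Cxcr1: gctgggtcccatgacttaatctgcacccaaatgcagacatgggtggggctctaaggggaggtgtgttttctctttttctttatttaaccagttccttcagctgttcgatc
The longest word shared by Cxcl1 and Cxcl6 was CCGGGAATTTCCC, of 13 letters, which has the form of an NF-κB element. On either strand it occurred in 2 of all 33469 promoters (0.00598%), those of these genes. Counted from the start, it lay from -86 to -74 in Cxcl1 and from -90 to -78 in Cxcl6. All 3 ligands shared ATTTCCC, its right end, held by 4.85% of all promoters on either strand, and ATAAAAG, of the form of a TATA box, held by 5.17%. Cxcl1 and Cxcl2 alone shared these words with flanking letters, as ATTTCCCTG (0.347% of all promoters) and GCATAAAAG (0.188%). The shorter words were also searched in the promoters of Cxcr1, Cxcr2 and S100a9 and were not in these windows. The words were found in the sequences themselves, and a match describes letters only.

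Library totals lay between 62844376 and 88358570 counts, so that 3 counts, taken as the floor, correspond to 0.0341 to 0.0472 CPM, the counts scaled to library size. The floor covers counting error only, since PCR copies were not marked by molecular identifiers, while the 95% intervals of log2FC come from the fits over rats. The tissue label was borne out by Mbp, of myelin, and Gfap, an astrocyte filament, both abundant in every group. SCI replicates 1 and 3 stood apart by skeletal muscle RNA. The summed level of 7 muscle genes reached 3429 CPM in the SCI group against 11.1 CPM in the lowest SCI library (replicate 2), 21.0 to 64.4 CPM in the Sham group and 14.0 to 15.1 CPM in the SCI + SCS group, so comparisons with the SCI group are also given with replicate 2 as its only library.

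In uninjured cord the members had 0 to 111 counts per library, and Cxcr1 had 0 counts in each. By FPKM, which allows levels of different genes to be compared, S100a8 (1.14 ± 0.479 FPKM, SD, n = 3) and S100a9 (1.10 ± 0.590 FPKM) were highest in the Sham group, with overlapping values. Cxcl3 followed at 0.380 ± 0.145 FPKM and had the highest mean of the 4 ligands there, with values overlapping those of S100a9 and Cxcl1. Cxcr2 lay at 0.0189 ± 0.0182 FPKM and Cxcr1 at 0. In the SCI group the order was S100a8 (7.28 FPKM, 5.57 to 9.48), S100a9 (6.45 ± 3.45 FPKM), Cxcr1 (1.84 ± 0.731 FPKM) and Cxcl1 (1.36 ± 0.949 FPKM), with the remaining 4 below 0.25 FPKM in every library. S100a8 overlapped S100a9 there and Cxcr1 overlapped Cxcl1, while S100a9 did not overlap Cxcr1. In the SCI + SCS group S100a8 (9.02 ± 4.37 FPKM) and S100a9 (8.28 ± 4.21 FPKM) again overlapped, and Cxcl1 (0.966 ± 0.494 FPKM) lay above Cxcr1 (0.396 ± 0.143 FPKM) without overlap.

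**Figure D1:**
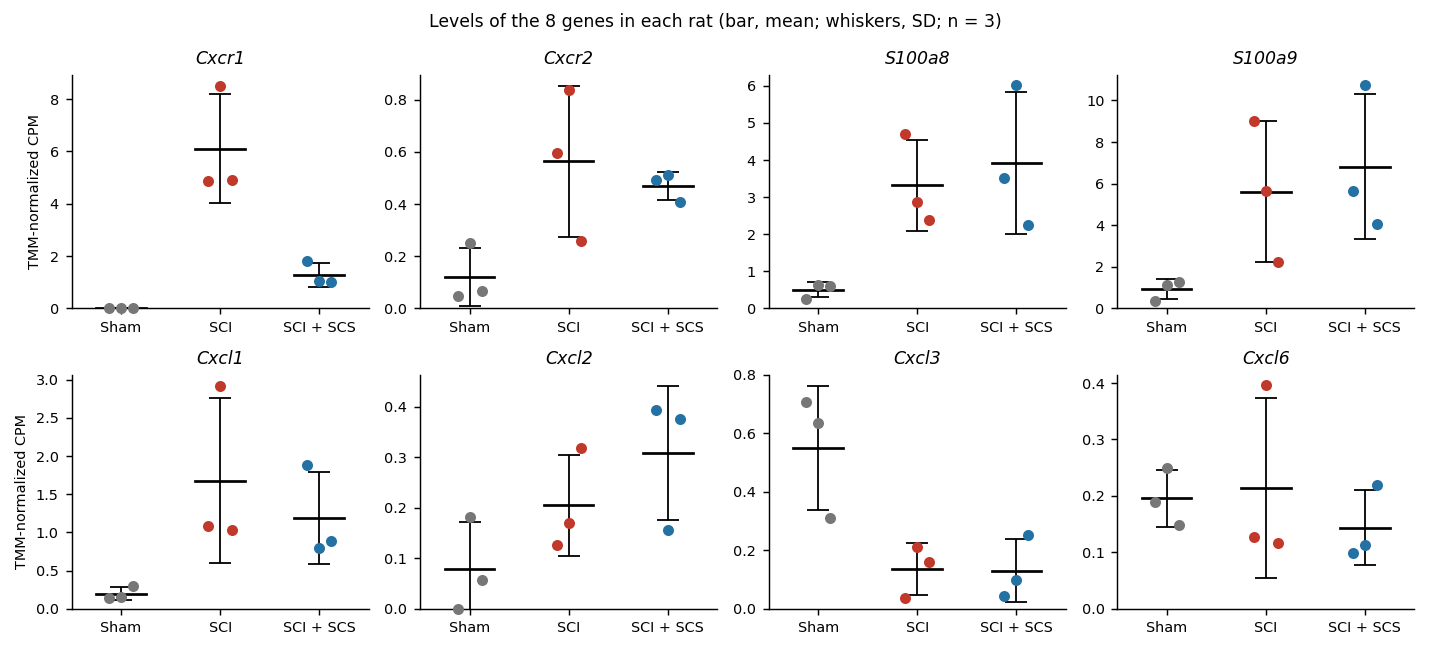
TMM-normalized CPM of the 8 genes in each of the 9 rats, by group, with each panel on its own linear axis from 0; bars are means and whiskers SD (n = 3). Cxcr1 was at 0 in every Sham rat, between 4.89 and 8.52 CPM in the SCI group and between 1.003 and 1.82 CPM in the SCI + SCS group, whereas S100a8 and S100a9 overlapped between the injured groups.

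The first comparison asks which members differed 35 days after contusion (SCI against Sham). Of the 8 genes 4 rose (Cxcr1, Cxcl1, S100a8 and S100a9) and 1 fell (Cxcl3) in edgeR's quasi-likelihood test, where a call needs |log2FC|>1 together with a p under 0.05 after Benjamini-Hochberg adjustment. Among all 17822 genes tested 13.4% rose and 13.6% fell, 26.9% in either direction. The median log2FC of the members was 2.37, beside 0.015 over all genes tested. SCI and Sham libraries were fully separated for 6 of the 8 members, 5 higher and 1 lower in the SCI group, against 63.6% of all genes tested. Whole-cord RNA does not tell more cells of a type from more RNA per cell.

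Among the ligands Cxcl1, an early and potent neutrophil attractant made by astrocytes, endothelium and macrophages, had 9, 14 and 26 counts in Sham replicates 1 to 3 and 85, 206 and 71 counts in SCI replicates 1 to 3. Every SCI library was above every Sham library, and SCI replicate 2 was the highest. The difference was a log2FC of 3.04 ± 0.58 (SE) with an adjusted p of 0.00667 (edgeR), or 0.199 ± 0.0854 against 1.68 ± 1.08 CPM (SD). Cxcl2, its close relative, had 0, 16 and 5 counts in the Sham and 10, 12 and 22 counts in the SCI libraries, which overlapped, and its log2FC of 1.27 ± 0.98 did not pass the test (adjusted p = 0.315, edgeR; 95% interval -1.08 to 3.61).

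Cxcl3, the third member of this gene trio, moved the other way. It had 45, 56 and 27 counts in the Sham libraries and 3, 15 and 11 counts in the SCI libraries. All SCI libraries were below all Sham libraries, and its log2FC was -2.02 ± 0.67 with an adjusted p of 0.0430 (edgeR). This call rested on few counts. It was met in 7 of 17 settings and was lost when any 1 of Sham replicates 1 and 2 or SCI replicates 1, 2 and 3 was left out (adjusted p up to 0.116, edgeR), although the log2FC stayed negative, between -2.51 and -1.57. The length that FPKM and counts imply for Cxcl3 also varied between libraries, from 877 to 1646 bases, more than for the other members. Cxcl6, a further CXCR1 and CXCR2 ligand, had 12, 22 and 13 counts in the Sham and 10, 28 and 8 counts in the SCI libraries, which overlapped, with a log2FC of 0.10 ± 0.61 (adjusted p = 0.900, edgeR).

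The make-up of the ligand transcripts differed accordingly. Cxcl3 held 70.4, 55.2 and 38.0% of the summed FPKM of the 4 ligands in Sham replicates 1 to 3, and 2.32, 5.20 and 9.85% in SCI replicates 1 to 3. Cxcl1 held 16.7, 14.5 and 42.6% in the Sham and 83.6, 83.9 and 67.0% in the SCI libraries. Neither share overlapped between the groups, and each gave p = 0.1 in an exact two-sided permutation test, the smallest p that 3 rats against 3 allow (adjusted p = 0.2 over the 20 comparisons of shares and ratios, all chosen after the values were seen). The summed FPKM of the ligands was 0.686 ± 0.147 in the Sham and 1.70 ± 1.07 in the SCI group (SD; exact permutation p = 0.1, adjusted p = 0.2).

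**Figure D2:**
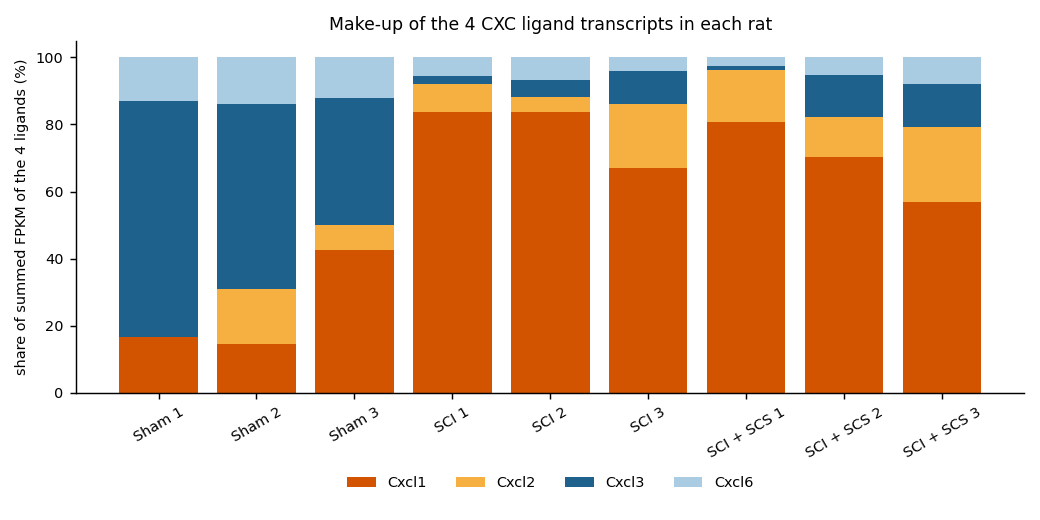
Share of each of the 4 ligands in their summed FPKM (%) in each rat, as stacked bars that add up to 100%. Cxcl3 made up 38.0 to 70.4% in the Sham rats and Cxcl1 made up 56.9 to 83.9% in the rats with a contusion.

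Of the receptors Cxcr1, which binds fewer of the ligands than Cxcr2, was listed at 0 counts in all 3 Sham libraries. It had 385, 600 and 340 counts in SCI replicates 1 to 3, or 4.89, 8.52 and 4.92 CPM. The SCI mean was at least 159-fold higher than the floor of 3 counts per Sham library, and the adjusted p was 0.00129 (edgeR). Cxcr2, the main receptor of the family on rodent neutrophils, had 3, 22 and 6 counts in the Sham and 47, 59 and 18 counts in the SCI libraries. After scaling for depth all SCI libraries were above all Sham libraries by a small margin, 0.260 against 0.250 CPM for SCI replicate 3 and Sham replicate 2. Its log2FC of 2.15 ± 0.75 missed the threshold (adjusted p = 0.0518, edgeR; 95% interval 0.35 to 3.95), while DESeq2 called it (adjusted p = 0.0274), as it did 25.5% of the genes it tested. In all, Cxcr2 was called in 4 of 15 settings.

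The alarmins had a similar size of difference to each other. S100a8 had 17, 55 and 54 counts in the Sham and 371, 203 and 164 counts in the SCI libraries. S100a9 had 24, 99 and 111 counts in the Sham and 709, 397 and 154 counts in the SCI libraries. For both genes every SCI library was above every Sham library after scaling for depth, and SCI replicate 1 was the highest. The log2FC was 2.69 ± 0.44 for S100a8 (adjusted p = 0.00406, edgeR) and 2.58 ± 0.64 for S100a9 (adjusted p = 0.0164, edgeR). The ratio of S100a9 to S100a8 FPKM was 0.722 to 1.09 in the Sham, 0.494 to 1.04 in the SCI and 0.851 to 0.954 in the SCI + SCS libraries, which overlapped. With SCI replicate 2 as the only SCI library, the log2FC of S100a8 (2.49) and S100a9 (2.59) was close to that with all libraries. On that basis the log2FC was 3.84 for Cxcl1, 2.73 for Cxcr2, 1.03 for Cxcl2, 1.001 for Cxcl6 and -1.38 for Cxcl3. With 1 SCI library these are given as sizes only.

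The second comparison asks whether the members differed between injured rats with and without HF-SCS (SCI + SCS against SCI). By edgeR 0 of the 7 members tested were called, where 1 of all 17663 genes tested was (0.00566%). Cxcl6 did not pass the filter on low counts. At |log2FC|>1 and an unadjusted p under 0.05 there was 1 member, Cxcr1, lower in the SCI + SCS group, beside 2.56% of all genes lower at that threshold. DESeq2 called the same gene, and 2.04% of the genes it tested as lower, and limma on FPKM called 0 members. The median log2FC of the 7 members was -0.06, beside -0.0055 over all genes. Of the tested members 1 did not overlap between the groups, against 29.5% of all genes.

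Cxcr1 had 130, 74 and 64 counts in SCI + SCS replicates 1 to 3, or 1.82, 1.05 and 1.003 CPM, against 4.89, 8.52 and 4.92 CPM in the SCI libraries. Each stimulated rat was below each rat of the SCI group. The mean was 1.29 ± 0.461 against 6.11 ± 2.09 CPM (SD), a log2FC of -2.23 ± 0.35 (4.69-fold lower; 95% interval -3.04 to -1.41). The unadjusted p was 0.000344 in edgeR and the adjusted p 0.0719, which missed the threshold, whereas DESeq2 gave a log2FC of -2.24 and an adjusted p of 9.73e-08. Over 17 settings the log2FC lay between -2.72 and -1.001, the adjusted p between 9.73e-08 and 0.278, and 2 settings called the gene. These were DESeq2 and edgeR without SCI + SCS replicate 1 (adjusted p = 0.0499). With SCI replicate 2 alone, the SCI library with little muscle RNA, the log2FC was -2.72 (adjusted p = 0.226, edgeR).

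Cxcr2 had 35, 36 and 26 counts in the SCI + SCS libraries, within the range of the SCI libraries, with a log2FC of -0.26 ± 0.47 (95% interval -1.36 to 0.85; adjusted p = 0.775, edgeR). The ratio of Cxcr1 to Cxcr2 FPKM was 15.3, 18.8 and 35.6 in SCI replicates 1 to 3 and 6.99, 3.83 and 4.52 in SCI + SCS replicates 1 to 3. The ratio of Cxcr1 to S100a9 FPKM was 0.137 to 0.560 in the SCI and 0.0247 to 0.0812 in the SCI + SCS libraries. Neither ratio overlapped between the groups (exact two-sided permutation p = 0.1 for each, the smallest possible, adjusted p = 0.2), and both were lower in each stimulated rat than in each rat of the SCI group.

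Of the ligands Cxcl1 had 134, 56 and 57 counts in the SCI + SCS libraries, overlapping the SCI libraries, with a log2FC of -0.48 ± 0.53 (95% interval -1.74 to 0.77; adjusted p = 0.617, edgeR). Cxcl2 had 28, 11 and 24 counts and a log2FC of 0.60 ± 0.56 (95% interval -0.71 to 1.91), and Cxcl3 had 3, 7 and 16 counts and a log2FC of -0.06 ± 0.83 (95% interval -2.03 to 1.91). Cxcl6 had 7, 8 and 14 counts. With SCI replicate 2 as the only SCI library the log2FC was -1.30 for Cxcl1, 0.84 for Cxcl2, -0.71 for Cxcl3 and, of the receptors, -0.84 for Cxcr2. All 8 members passed the filter there, Cxcl6 included, and 5 had a negative log2FC. The member median was -0.77, beside -0.06 over the 7 members tested with all libraries. With 1 SCI library these are given as sizes only. All 4 ligands overlapped between the groups, and at these counts differences within the intervals were not detectable.

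The alarmins overlapped between stimulated and unstimulated injured cord. S100a8 had 251, 424 and 143 counts and S100a9 had 404, 756 and 258 counts in SCI + SCS replicates 1 to 3. SCI + SCS replicate 2 was the highest of the 9 libraries for both genes. The log2FC was 0.25 ± 0.41 for S100a8 (95% interval -0.72 to 1.22; adjusted p = 0.750, edgeR) and 0.29 ± 0.54 for S100a9 (95% interval -0.99 to 1.56; adjusted p = 0.785, edgeR). Without SCI + SCS replicate 2 both turned negative, at -0.20, and with SCI replicate 2 as the only SCI library they were 0.44 and 0.27.

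**Figure D3:**
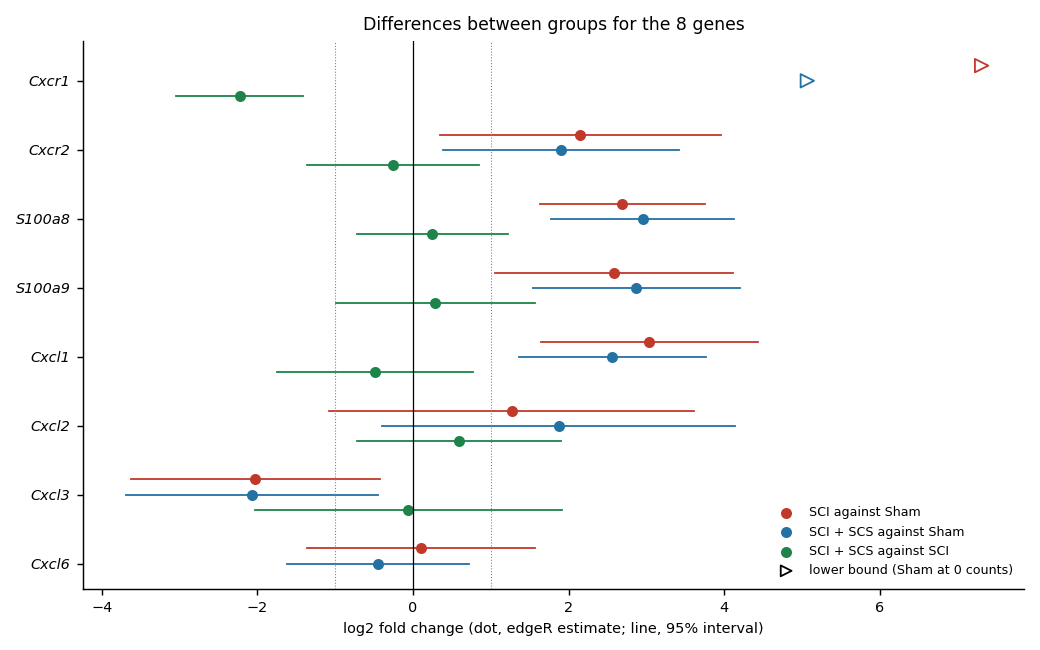
log2FC of the 8 genes in the 3 comparisons (dots, edgeR estimates; lines, 95% intervals; open triangles, lower bounds for Cxcr1, which had 0 counts in the Sham group; dotted lines, log2FC of -1 and 1; Cxcl6 was not tested in SCI + SCS against SCI). Of the 7 members tested in SCI + SCS against SCI, the interval of Cxcr1 (-3.04 to -1.41) excluded 0 and the other 6 included it.

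Against the Sham group, whose libraries are also those of the first comparison, 4 of the 8 members rose in the SCI + SCS group and 0 fell, where 6.28% of 17640 genes rose and 5.44% fell (11.7% in either direction). DESeq2 called 6 members (13.2% of the genes it tested), and at |log2FC|>1 with an unadjusted p under 0.05 there were 5 higher and 1 lower (14.5% of all genes). The median log2FC of the members was 2.23, beside 0.0077 over all genes. The libraries did not overlap for 6 of the 8 members, against 53.2% of all genes. Cxcr1 was at least 33.5-fold higher than the floor (adjusted p = 0.00464, edgeR). The log2FC was 2.56 ± 0.50 for Cxcl1 (adjusted p = 0.0137, edgeR), 2.95 ± 0.49 for S100a8 (adjusted p = 0.00928, edgeR) and 2.87 ± 0.55 for S100a9 (adjusted p = 0.0132, edgeR). Cxcr2 (1.90 ± 0.63, adjusted p = 0.0594, edgeR) and Cxcl3 (-2.07 ± 0.68, adjusted p = 0.0567, edgeR) missed the threshold without overlap, and Cxcl2 (1.87 ± 0.95) and Cxcl6 (-0.45 ± 0.49) overlapped.

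Other genes of the same biology were read from lists. Of 11 markers of mature neutrophils 10 were tested and 6 rose in the SCI against the Sham group (median log2FC 1.65), none of them falling. They included Csf3r, the G-CSF receptor (1.39 ± 0.31), Lcn2, the siderophore-binding lipocalin (2.56 ± 0.27), which reactive astrocytes also make, and Camp, the cathelicidin (1.76 ± 0.36). Ltf, the lactoferrin of secondary granules, was at 0 in all 9 libraries. The summed marker level was 6.37 to 10.7 CPM in the Sham, 27.0 to 41.8 CPM in the SCI and 26.2 to 36.0 CPM in the SCI + SCS libraries, so that both injured groups lay above the Sham group and overlapped each other. In SCI + SCS against SCI, edgeR called 0 of 10 (median log2FC -0.19; 1 lower at an unadjusted p under 0.05 and 1 by DESeq2), with Csf3r at 0.14 ± 0.26.

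Of 8 genes of neutrophil precursors 4 were tested and 2 rose with SCI. Fcnb, a ficolin, was one of them (3.97 ± 0.42), whereas Mpo, myeloperoxidase, had 2.42 ± 0.95 (adjusted p = 0.0744, edgeR) and Prtn3, proteinase 3, -0.49 ± 0.47. All 5 subunits of the phagocyte oxidase were tested and 4 rose (median 2.77), among them Cyba (3.39 ± 0.31) and Ncf1 (2.77 ± 0.36). Neutrophil adhesion genes rose in 4 of 9, including the endothelial ligand Icam1 (2.22 ± 0.39) and the β2 integrin chain Itgb2 (2.24 ± 0.22), while Vcam1 (0.84 ± 0.10) stayed under the fold threshold. Of the 9 adhesion genes 2 had a negative log2FC, and 1 was lower at |log2FC|>1 and an unadjusted p under 0.05 (edgeR). edgeR called 0 genes of these 3 lists in SCI + SCS against SCI, with medians of -0.40, -0.42 and -0.03 and 1, 0 and 1 lower at an unadjusted p under 0.05 (0, 0 and 1 by DESeq2).

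Downstream of the receptors, 7 of 15 signalling genes rose with SCI and 1 (Prex1) fell. The 3 most abundant, the inhibitory G protein subunits Gnai2 (0.76 ± 0.13) and Gnai3 (0.33 ± 0.16) and the receptor kinase Grk2 (-0.77 ± 0.19), did not pass the fold threshold. Among cytokines and regulators that act upstream of the ligands 4 of 6 rose, including Il1a (1.67 ± 0.42) and the IκB family member Nfkbiz (1.04 ± 0.18), and Zfp36, which destabilizes chemokine mRNA, had 0.88 ± 0.25. Il6 alone of the 6 had a negative log2FC (-1.07), without a call. It had 24 to 27 counts in the Sham and 8 to 17 counts in the SCI libraries. In the list of other neutrophil attractants, which holds genes for their receptors and synthesis, 1 of 5 rose. The PAF receptor Ptafr was at 0.93 ± 0.20, Alox5ap at 0.97 ± 0.38 and the leukotriene hydrolase Lta4h at 0.08 ± 0.11. DESeq2 called 1 gene of that list higher and 1 lower, beside 25.5% of the genes it tested. In the list of other CXCR2 ligands and the scavenger Ackr1, 0 of 2 tested were called by edgeR, at unadjusted p or by DESeq2, with Mif at -0.25 ± 0.18 and Ackr1 at -0.74 ± 0.31, and Ppbp was too low to test.

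Sensors of the alarmins rose in 5 of 6, including the co-receptor Cd14 (2.61 ± 0.38) and the adaptor Myd88 (1.31 ± 0.21), while basigin (Bsg) had 0.44 ± 0.17. Other S100 genes rose in 5 of 8, with S100a4 at 3.68 ± 0.47 and S100a6 at 2.44 ± 0.42, and the glial S100b at -0.42 ± 0.21 did not pass. In SCI + SCS against SCI edgeR called 0 genes of the lists of signalling, cytokines, attractants, other ligands, sensors and S100 genes, with medians of -0.07, -0.41, -0.18, 0.18, -0.53 and -0.12. At an unadjusted p under 0.05 there was 1 lower cytokine and 1 lower S100 gene, both also called by DESeq2.

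**Figure D4:**
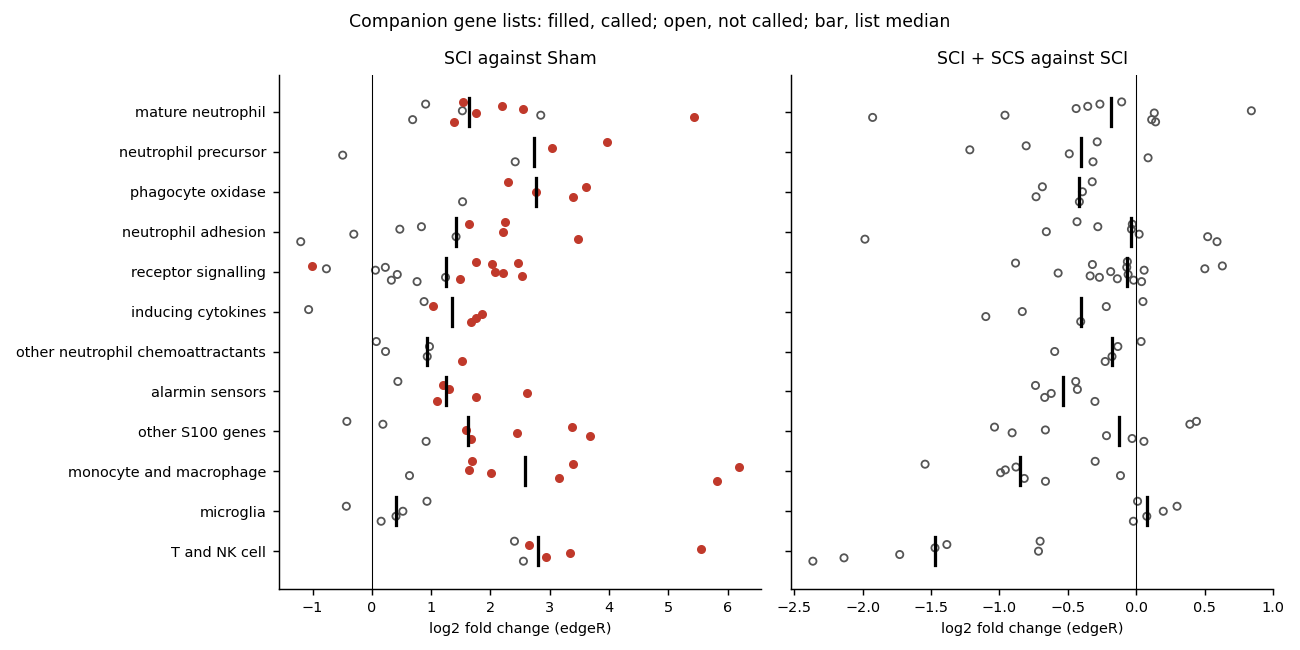
log2FC (edgeR) of the tested genes of 12 lists in SCI against Sham and SCI + SCS against SCI (filled, called; open, not called; bars, list medians; the horizontal scales differ). The median of mature neutrophil markers was 1.65 in the first and -0.19 in the second comparison, and that of T and NK cell markers 2.80 and -1.47.

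Markers of some other leukocytes also rose with SCI. Monocyte and macrophage markers rose in 7 of 8 with SCI (median 2.58), with Cd68, a lysosomal protein, at 5.81 ± 0.57, Gpnmb at 6.20 ± 0.43 and lysozyme (Lyz2) at 3.15 ± 0.58. T and NK cell markers rose in 4 of 6 (median 2.80), with Cd8a at 5.56 ± 0.29, and microglial markers in 0 of 5 by edgeR, by DESeq2 and at unadjusted p (Tmem119 0.41 ± 0.19 and Cx3cr1 0.52 ± 0.26).

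Several list sums lay lower in every SCI + SCS than in every SCI library, as Cxcr1 did. Among lists of the neutrophil response these were phagocyte oxidase (348 to 396 CPM in the SCI and 206 to 259 CPM in the SCI + SCS libraries), neutrophil adhesion (230.1 to 303 and 199.9 to 222 CPM) and alarmin sensors (686 to 1019 and 548 to 670.3 CPM). Bsg alone averaged 746 of 818 CPM of the sensor sum in the SCI group and 546 of 595 CPM in the SCI + SCS group. Cyba averaged 208 of 365 and 125 of 240 CPM of the oxidase sum. The mature neutrophil and neutrophil precursor sums overlapped between these groups. Of single genes tested, 29.5% did not overlap, in either direction. The monocyte and macrophage sum was 2104 to 3330 CPM in the SCI and 1551 to 1615 CPM in the SCI + SCS libraries, and the T and NK cell sum was 19.0 to 21.6 and 7.31 to 13.5 CPM, while microglial sums overlapped (320 to 488 and 387 to 504 CPM). All 8 monocyte and macrophage markers and all 7 tested T and NK cell markers had a negative log2FC (medians -0.85 and -1.47). edgeR called 0 of them, with 1 and 3 lower at an unadjusted p under 0.05 and by DESeq2. The part of these cells in the level of Cxcr1 was not tested.

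Erythroid genes had positive medians after contusion, and edgeR called 0 of them. Their sum was 12.6 to 63.4 CPM in the Sham, 38.5 to 145 CPM in the SCI and 44.9 to 106 CPM in the SCI + SCS libraries, which overlapped. The median log2FC was 1.31 over 5 tested genes in SCI against Sham (4 positive) and 1.37 in SCI + SCS against Sham (5 positive, 2 of them called by DESeq2), beside 1.65 and 1.88 for mature neutrophil markers. Their part in the level of the members was not tested.

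With SCI replicate 2 as the only SCI library, the median log2FC in SCI against Sham was 1.98 for mature neutrophil markers. It was 3.23 for oxidase subunits, 1.74 for adhesion genes, 1.73 for signalling genes and 1.55 for cytokines. Alarmin sensors had a median of 1.20 and other S100 genes 1.28. Monocyte and macrophage markers had 2.71, T and NK cell markers 2.83 and microglial markers 0.41. Each of these medians was positive, as with all libraries. The list of other CXCR2 ligands and Ackr1 had -0.59, and -0.49 with all libraries. These are sizes from 1 SCI library and do not show that the calls given above held. On that basis edgeR called 0 genes of these lists between the injured groups (0.0163% of all genes), and the median of the other S100 genes turned from -0.12 to 0.23.

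**Figure D5:**
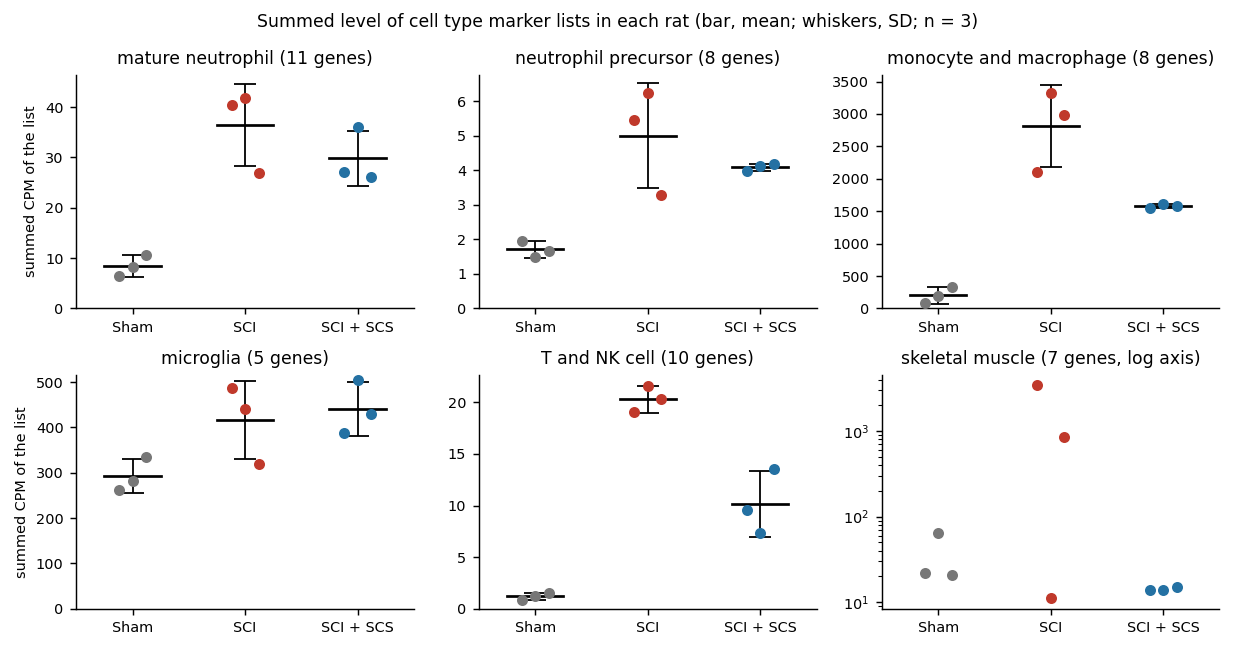
Summed CPM of 6 lists of cell type markers in each rat (bars, means; whiskers, SD; n = 3; the muscle panel has a log axis and shows points only). Mature neutrophil sums overlapped between the SCI (27.0 to 41.8 CPM) and SCI + SCS (26.2 to 36.0 CPM) groups, while monocyte and macrophage sums did not (2104 to 3330 and 1551 to 1615 CPM).

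Across the 9 libraries, the genes whose levels were most like each member were taken by Pearson's r of log2(CPM + 0.1) among 16271 genes. These r follow the group differences and are a description. Cxcr1 was most like Mmp12, the macrophage metalloelastase (r = 0.998), the keratin pseudogene Krt6a-ps2 (r = 0.995) and Ly49si3, of the Ly49 family of NK cell receptors (r = 0.991). S100a9 was most like Csf3r (r = 0.987), then Dnah12 and Golm1, and S100a8 most like Ucn (r = 0.992), Ttc14 and Mt1. For Cxcr2 these were Ksr1 (r = 0.981), Runx1 and Mrgprx3, and for Cxcl1 Irf2bp2 (r = 0.981), Blk and Cfap45. Cxcl3 was most like G6pc1 (r = 0.982), Rgs5 and Snu13-ps5. The low Cxcl2 and Cxcl6 were most like Snord49b (r = 0.962), Chp2 and Il36b, and Ltn1 (r = 0.892), Tmem116 and Rasa1, respectively.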

How the data were processed

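Poly(A) RNA of 9 cords was sequenced from both ends in 1 labelled batch. Per the submitters' processing notes, reads were trimmed with fastp 0.23.2 and aligned with HISAT2 2.2.1 to mRatBN7.2. The counting program and annotation are not given in the sources used here. The authors deposited raw counts per gene without normalization, and FPKM, which are counts scaled by gene length and library total. All columns were mapped to samples by their labels (0 unmapped).

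Counts were compared with edgeR 4.0.16 under R 4.3.3 (TMM, filterByExpr and the quasi-likelihood test) over the 6 libraries of the groups compared, without covariates. The SE of a log2FC is |log2FC|/sqrt(F). CPM used TMM over 9 libraries. Alternatives were DESeq2 1.42.0, which the study's methods name, limma 3.58.1 on log2(FPKM + 1) and log2(FPKM + 0.1) where the mean FPKM reached 0.1, other filters, scalings and fits, and leaving out each library. Fold changes on the FPKM scale understate those of low genes. The edgeR, DESeq2 and limma fits were tested on simulated data.

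The members and lists were chosen with earlier results of these data known. Named were all members, the 3 genes of each list with the highest mean FPKM, and for each member with a mean of at least 10 counts the 3 genes most like it. Some genes that this rule selects are not reported here. Genes named otherwise (Prex1, Ltf and those in the closing section) were chosen after their values were seen. Same-numbered libraries come from different rats and did not deviate together. The p-values measure the spread between rats.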

Additional observations from a re-analysis of the deposited data

How the results depend on the processing

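For single members, 299 values kept their direction and side of the threshold, 24 lost and 12 gained a call, and 15 changed sign, none of the latter called. In SCI against Sham, where 5 members and 4800 of all genes were called, log2(FPKM + 1) in limma called 3 members with and without the filter. It called 2649 of all genes with the filter and 2550 without it. Leaving out a library gave 4 to 5 members and 3908 to 5108 of all genes. The fit with SCI replicate 2 alone was chosen after seeing the data. In SCI + SCS against SCI, with 0 called, DESeq2 called 1 member and 777 of all genes, and leaving out a library gave 0 to 1 members. In SCI + SCS against Sham, with 4 called, log2(FPKM + 1) called 2 with and without the filter, and leaving out a library gave 3 to 5. A larger pseudocount shrinks the fold changes of genes this low, and 1 SCI library leaves fewer samples, the lone library being assumed to vary like the others. For the other settings the cause was not tested.

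The replicate numbers do not pair rats, and the correlations of deviations averaged 0.08, -0.08 and -0.16 in the 3 comparisons. With the replicate number as a block, 4, 0 and 1 members were called in SCI against Sham, SCI + SCS against SCI and SCI + SCS against Sham. In SCI against Sham the block called 4656 of all genes, where 4800 were called without it. Where no count over all genes is given beside the members, a change of the setting cannot be told from a change of the members.

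In SCI against Sham the log2FC of Cxcl6 became -0.066 with the replicate block and lay between -0.71 and 0.39 when a library was left out, negative without Sham replicate 3 (-0.07) and SCI replicate 2. In SCI + SCS against SCI, leaving out 1 library gave ranges of -0.61 to 0.13 for Cxcr2, -0.98 to 0.18 for Cxcl1, -0.92 to 0.41 for Cxcl3, -0.20 to 0.57 for S100a8 and -0.20 to 0.79 for S100a9. Leaving out SCI replicate 2 turned Cxcr2, Cxcl1 and Cxcl3 positive. Leaving out SCI replicate 3 gave 0.06 for Cxcl3 and -0.10 for S100a9. Leaving out SCI + SCS replicate 1 gave 0.37 for Cxcl3, and leaving out replicate 2 gave 0.10 for Cxcl3, negative values for S100a8 and S100a9. Cxcl3 was at 0.0027 with log2(FPKM + 1), with and without the filter, and at 0.018 with log2(FPKM + 0.1). Depth limits Cxcl2, Cxcl3, Cxcl6 and Cxcr2 most, which had at most 59 counts in a library.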

Other observations

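Some genes of the lists had a lower CPM in every SCI + SCS than in every SCI library, a |log2FC|>1 and an unadjusted p under 0.05, without passing the adjusted threshold in edgeR. They were chosen after their values were seen. Mmp8, the neutrophil collagenase, had a log2FC of -1.93 ± 0.66 (SE; adjusted p = 0.142, edgeR), with 205 to 883 counts in the SCI, 57 to 149 in the SCI + SCS and 0 to 27 in the Sham libraries. Selp, the P-selectin on which leukocytes roll, had -1.98 ± 0.66 (adjusted p = 0.138, edgeR) and overlapped between the groups in FPKM, Il1b -1.10 ± 0.32 (adjusted p = 0.114, edgeR) and S100a11 -1.04 ± 0.22 (adjusted p = 0.0826, edgeR). DESeq2 called these 4 genes. Cebpe, a factor of granulocyte maturation, had -1.22 ± 0.35 (adjusted p = 0.113, edgeR) and was not called by DESeq2. Ngp, a neutrophil granule protein, had 109 to 272 counts in the SCI + SCS, 51 to 131 in the SCI and 11 to 65 in the Sham libraries.

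Lists of cells that could come with the dissected tissue gave the following. In SCI against Sham edgeR called 0 of 5 erythroid genes (described above with their sums) and 0 of 3 keratinocyte genes, as did DESeq2 and the unadjusted p, and no mast cell gene was high enough to test. Of 7 muscle genes 4 rose, and of 6 cord genes 4 fell. In SCI + SCS against SCI edgeR called 0 genes of these lists, while DESeq2 and the unadjusted p marked 7 of 7 muscle genes as lower and 1 of 6 cord genes as higher.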
